A study of Mus musculus with 8 samples.

Results

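Lrg1, which encodes leucine-rich alpha-2-glycoprotein 1, was followed with 9 other genes of the acute-phase response and of the cytokine signalling that drives it (Lcn2, Saa3, Hp, Cp, Il1r1, Il6st, Il6ra, Socs3 and Stat3) in pancreatic islets of mice on a high fat diet (HF) and on normal chow (NC). The genes were selected on their known roles and with the HF against NC values of these same arrays in view, so their differences between the diets are a description: they carry no p-value here, and the calls that a fit over all probe sets gave them are stated only as labels of size and spread. Every probe set that the platform annotation assigns to one of these genes and to no other was taken, which gave 27 of the 45101 probe sets on the array and 10 of the 18194 genes with such a probe set. The HF samples were numbered 21, 22, 23 and 24 and the NC samples 1, 2, 4 and 5 in the labels, and each sample was islet RNA pooled from 2 mice and hybridised to 1 array.

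All mice were male C57BL/6J, a substrain that carries a natural deletion in the gene for nicotinamide nucleotide transhydrogenase, so both diet groups lacked that mitochondrial enzyme. HF mice received a diet with 45 kcal% fat and NC mice a chow with 4 kcal% fat. Feeding began at 4 weeks of age, and its length is 12 weeks in the labels and 14 weeks in the study's methods. Isolated islets hold several cell types, and in such bulk RNA fewer cells of a type and less RNA per cell cannot be told apart.

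In the acute-phase response, interleukin 6 binds its receptor (Il6ra) and the shared subunit gp130 (Il6st), Janus kinases then activate the transcription factor STAT3, and STAT3 switches on genes for secreted plasma proteins, mainly in hepatocytes. Interleukin 1 acts in parallel through Il1r1 and NF-kappaB, and many acute-phase genes answer to both. STAT3 also induces Socs3, which binds gp130 and shuts the signal down. Among the outputs, LRG1 is a secreted glycoprotein made by liver and neutrophils that modifies TGF-beta signalling in mouse endothelium, lipocalin 2 binds bacterial iron carriers, serum amyloid A3 is the amyloid A protein that mice make outside the liver, haptoglobin binds free haemoglobin, and ceruloplasmin (Cp) is a copper-carrying enzyme that oxidises iron. Islet cells carry interleukin 1 receptors, and the response of islets to interleukin 1 is a long-studied model of beta cell injury.

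The values are GCRMA intensities on a linear scale, which carry no unit and are not compared between probe sets, and folds were taken on the log2 scale as HF minus NC. Intensities were summed over the probe sets of a marker list as a description, and such a sum is set mostly by its brightest probe sets. Sample medians lay between 13.03 and 13.81. To set aside dim probe sets, 56.8% of all probe sets were kept by their third-highest intensity over the 8 samples, and the dimmest kept had a value of 8.82 there. A probe set was called when the limma p, adjusted by the Benjamini-Hochberg method over all kept probe sets, was under 0.05 and the fold was at least 1.5. By this rule 783 probe sets (3.06%) were lower and 165 (0.644%) were higher in HF islets. The 9 beta cell markers measured, which check the labelled tissue, were bright in every sample and none was called, with Ins2 at 71683 to 74310 in HF and 67032 to 68077 in NC.

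Of the 27 probe sets, 22 passed this filter and represented 9 of the 10 genes. Among the 22, 9 were called lower in HF islets (1 of Lrg1, 6 of Cp and 2 of Il6st), none was called higher, and 13 were not called. The share called lower over all kept probe sets was 3.06%, and since the genes were chosen with this contrast known, nothing is read from the comparison. At an unadjusted limma p under 0.05 the counts were 11 lower and 2 higher, and the methods' t-test, which the study names for comparisons of 2 groups in general and not for the arrays, called 2 higher before adjustment and 0 after it. All 4 HF values lay below all 4 NC values in 10 of the 22 probe sets, against 7.84% of all kept probe sets, and all HF values lay above all NC values in 2, against 6.81%. The median log2 fold change was -0.36 over the 22 and 0.02 over all kept probe sets.

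**Figure D1:**
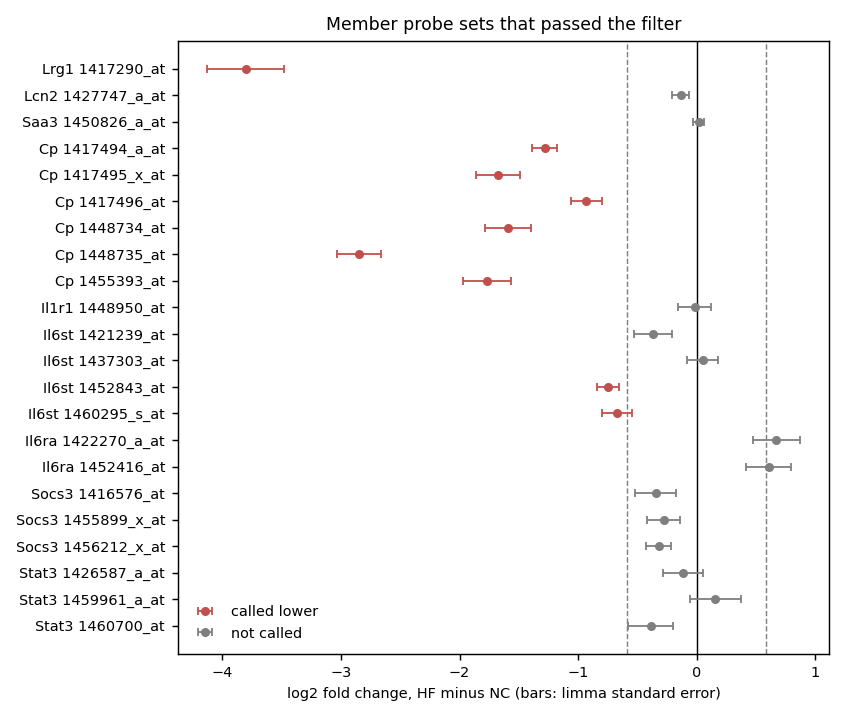
Log2 fold change, HF minus NC, of the 22 probe sets that passed the filter, with bars of 1 limma standard error on each side, colour for the call and dashed lines at a fold of 1.5. Lrg1 lies farthest from 0 at -3.80, the 6 Cp probe sets lie between -2.85 and -0.93, and the 2 Il6ra probe sets are the only ones above 0.5.

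Lrg1 was the member with the largest difference. Its single probe set (1417290_at) read 6.13, 14.4, 9.002 and 4.50 in HF islets, against 97.0, 126, 113 and 98.8 in NC islets. The groups were far apart, with the highest HF sample, HF 22, well under the lowest NC sample, and the HF samples varied more among themselves in relative terms than the NC samples. The means were 8.51 ± 4.35 in HF and 109 ± 13.5 in NC (SD, n = 4 each). The log2 fold change was -3.80 with a limma standard error of 0.32, or 13.96-fold lower in HF by the mean log2 values. HF 21 and HF 24 lay under the filter level of 8.82, so Lrg1 passed the filter through its NC values, and with values under that level raised to it the log2 fold change was -3.43. Leaving out each sample in turn gave -4.10 to -3.54, with the call kept in 8 of 8 fits.

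Ceruloplasmin had 8 probe sets, of which 6 passed the filter and all 6 were called lower. In the annotation 6 of the 8 (1417494_a_at, 1417495_x_at, 1417496_at, 1417497_at, 1448734_at and 1448735_at) rest on the same target sequence record, so they are repeated readings of 1 transcript and not separate evidence. The largest difference was at 1448735_at, with 8.52, 13.04, 14.2 and 14.7 in HF and 107, 80.3, 77.0 and 93.6 in NC. Its log2 fold change was -2.85 (limma standard error 0.19), or 7.20-fold lower in HF, and HF 21 alone lay under the filter level. The brightest reading, 1448734_at, was 104, 113, 69.2 and 95.0 in HF and 292, 209, 306 and 344 in NC, a log2 fold change of -1.59 (standard error 0.19). HF 23 was the lowest HF sample there but the next to highest at 1448735_at, so the order of the samples within a diet was not shared by the probe sets, while the gap between the diets was.

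The 1455393_at probe set, which has a record of its own, gave 15.9, 10.4, 8.10 and 9.56 in HF and 32.1, 32.6, 41.2 and 39.96 in NC, with a log2 fold change of -1.77 (standard error 0.20). Its values were dim in HF islets, with HF 23 under the filter level. At 1417495_x_at the intensities were 41.0, 59.0, 46.3 and 37.1 in HF and 144, 111, 149 and 181 in NC (log2 fold change -1.68, standard error 0.18). The suffix _x_at marks a probe set in which some probes can also bind other sequences, but the direction was that of the other readings. Across 1417494_a_at the values were 65.9, 59.5, 59.6 and 58.1 in HF and 132, 167, 168 and 128 in NC (log2 fold change -1.28, standard error 0.11). The smallest of the 6 differences was at 1417496_at, with 24.1, 25.7, 21.2 and 23.8 in HF and 48.4, 34.7, 46.1 and 53.3 in NC (log2 fold change -0.93, standard error 0.13), the only Cp call that a fold limit of 2 removed. In none of the 6 did the diets overlap, and each kept its call in 8 of 8 fits that left out 1 sample. Of the 2 Cp probe sets under the filter, 1441326_at was near 4.2 in all samples, at 4.15 to 4.34 in HF and 4.18 to 4.26 in NC, and 1417497_at read 6.90 to 7.25 in HF and 7.67 to 12.9 in NC.

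The remaining acute-phase proteins were dim on both diets. Lcn2 (1427747_a_at) read 9.76, 10.3, 9.60 and 10.5 in HF and 10.4, 12.4, 10.3 and 11.1 in NC, with a log2 fold change of -0.13 (standard error 0.07) and no call. Saa3 (1450826_a_at) read 9.48, 9.46, 9.28 and 9.81 in HF and 9.53, 9.32, 9.51 and 9.24 in NC, with a log2 fold change of 0.02 (standard error 0.05) and no call. Both genes stayed within a few units of the filter level in every sample, and their HF and NC values overlapped. Hp (1448881_at) was under the filter level, at 4.42 to 4.58 in HF and 4.46 to 4.50 in NC, and entered no fit. For these 3 genes an expression difference was not detectable at these intensities, which does not show that it was absent.

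**Figure D2:**
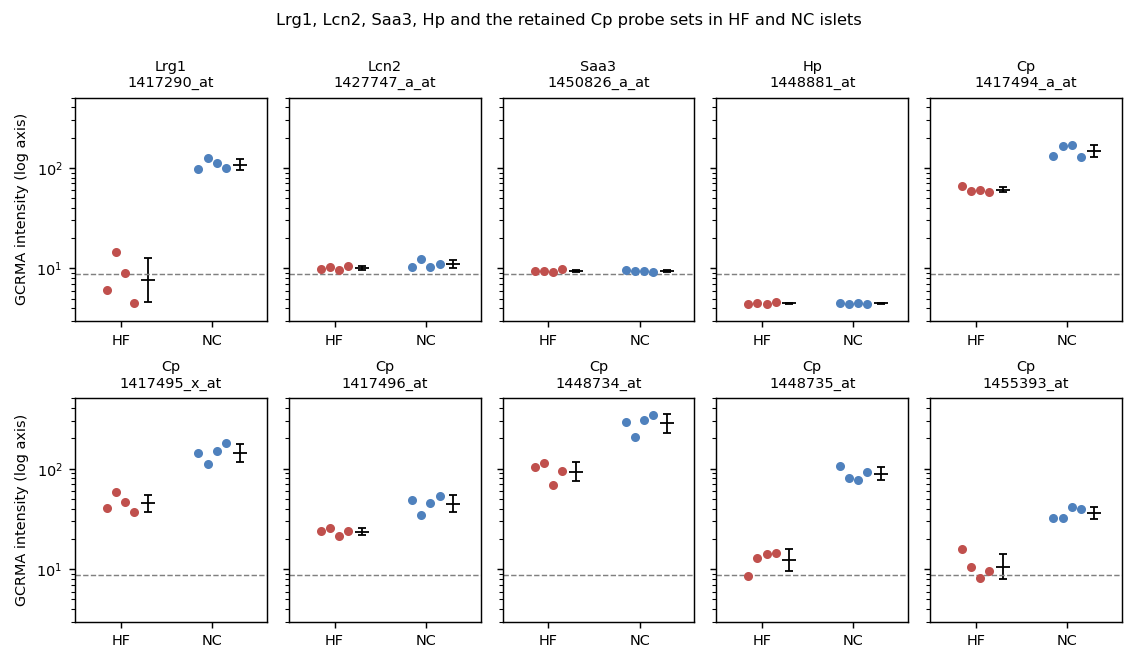
Linear GCRMA intensity, on a log axis, of each acute-phase protein probe set that passed the filter, and of Hp, in the 4 HF samples (left) and the 4 NC samples (right), and beside each group a tick at its mean log2 value with a bar of 1 SD and a dashed line at the filter level. Lrg1 and the 6 Cp probe sets show a gap between the diets, while Lcn2 and Saa3 lie just above the filter level and Hp under it on both.

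Promoters of the members are given for the motifs that the pathway's transcription factors are known to bind. RefSeq promoters (GRCm38.p6, 250 bases before to 50 after the start) were matched for 9 of the 10 genes, with 11 promoters in all. Each was searched on both strands for a STAT motif (TTCNNNGAA), a C/EBP motif (TTGCNNAA), a TATA box (TATAAA) and the NF-kappaB consensus. Over 32851 promoters of the same length these were present in 8.30%, 10.8%, 13.6% and 8.46%. The STAT motif was in 1 member promoter (Socs3), the C/EBP motif in 4 (Lcn2, Saa3, 1 of 2 for Cp and 1 of 2 for Il1r1), the TATA box in 2 (Lrg1 and 1 of 2 for Cp) and the NF-kappaB consensus in 1 (Il1r1). A match describes letters in this window and no binding. The promoters chosen for print are those of Lrg1 and Cp, the acute-phase genes that were lower in HF islets, and of Socs3, the STAT3 target whose promoter alone held the STAT motif, with the motifs found in capitals. Lrg1 lies at chr17:56121897-56122196 on the minus strand and holds the TATAAA letters, 11 bases after the annotated start, and none of the other motifs. The Cp promoter at chr3:19956999-19957298 on the plus strand holds a C/EBP motif on the opposite strand and, nearer the start, a pair of TATA boxes that overlap on the 2 strands. Socs3 lies at chr11:117969317-117969616 on the minus strand, with a stretch that fits the STAT pattern, a pattern that reads the same on both strands.
Lrg1: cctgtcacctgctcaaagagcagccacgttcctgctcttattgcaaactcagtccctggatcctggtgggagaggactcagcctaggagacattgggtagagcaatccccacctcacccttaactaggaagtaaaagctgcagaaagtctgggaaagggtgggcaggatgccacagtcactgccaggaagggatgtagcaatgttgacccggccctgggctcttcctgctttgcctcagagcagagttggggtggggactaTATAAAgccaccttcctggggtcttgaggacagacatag
Cp: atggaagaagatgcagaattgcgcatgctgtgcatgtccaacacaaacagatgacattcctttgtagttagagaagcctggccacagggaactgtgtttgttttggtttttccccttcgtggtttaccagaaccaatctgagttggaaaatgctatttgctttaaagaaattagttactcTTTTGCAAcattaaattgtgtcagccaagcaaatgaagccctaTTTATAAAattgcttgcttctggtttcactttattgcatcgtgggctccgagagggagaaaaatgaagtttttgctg
Socs3: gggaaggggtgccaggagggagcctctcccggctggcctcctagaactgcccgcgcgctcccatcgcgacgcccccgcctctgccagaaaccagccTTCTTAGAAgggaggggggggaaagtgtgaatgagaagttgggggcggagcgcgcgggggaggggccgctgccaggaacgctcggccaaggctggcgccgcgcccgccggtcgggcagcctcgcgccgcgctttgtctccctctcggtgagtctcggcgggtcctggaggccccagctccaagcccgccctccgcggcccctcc

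The 3 receptor genes had 7 probe sets over the filter and 1 under it. Il1r1, the signalling receptor for interleukin 1, read 12802, 9417, 14642 and 11331 in HF and 10811, 13789, 11537 and 12116 in NC at 1448950_at. The diets overlapped, the log2 fold change was -0.01 (standard error 0.14), and HF 22 and NC 2 were the extremes of their groups in opposite directions. Its other probe set, 1459777_at, was under the filter, at 5.36 to 5.79 in HF and 5.37 to 5.52 in NC.

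Il6st, the gp130 subunit that interleukin 6 shares with oncostatin M and leukaemia inhibitory factor, gave different answers at its 4 probe sets. At 1452843_at the intensities were 618, 618, 559 and 543 in HF and 1140, 882, 921 and 991 in NC, a log2 fold change of -0.75 (standard error 0.09) that was called lower and kept in 8 of 8 fits leaving out 1 sample. At 1460295_s_at they were 253, 260, 288 and 252 in HF and 475, 331, 488 and 402 in NC, a log2 fold change of -0.67 (standard error 0.13). Both showed every HF sample under every NC sample, but the second call was lost without HF 21 (-0.65), without HF 24 (-0.65) or without NC 1 (-0.61). The 1421239_at probe set, which shares its sequence record with 1460295_s_at, read 149, 163, 126 and 113 in HF and 151, 160, 228 and 173 in NC (log2 fold change -0.37, no call). The 1437303_at probe set read 545, 442, 383 and 443 in HF and 426, 359, 484 and 477 in NC (log2 fold change 0.05, no call). The diets overlapped at both of these, so a lower level of Il6st transcript in HF islets was read by 2 of its 4 probe sets, and the positions of the probe sets along the transcript were not used here.

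Il6ra, the subunit that binds interleukin 6 itself, was the single member whose HF values lay above its NC values in all samples, at both of its probe sets and without a call at either. At 1452416_at the intensities were 2002, 1962, 2052 and 1934 in HF and 919, 1172, 1839 and 1451 in NC, a log2 fold change of 0.61 (standard error 0.19). At 1422270_a_at they were 184, 147, 137 and 134 in HF and 69.2, 80.96, 129 and 107 in NC, a log2 fold change of 0.67 (standard error 0.20). The SD was 51.1 in HF and 394 in NC at 1452416_at but 22.8 in HF and 26.7 in NC at 1422270_a_at, and the NC samples had the same order at both, with NC 1 lowest and NC 4 highest. Without NC 4 both probe sets were called higher, with log2 fold changes of 0.78 at 1452416_at and 0.82 at 1422270_a_at, so that 1 library decided the call. Over all kept probe sets the share called higher was 0.644%.

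**Figure D3:**
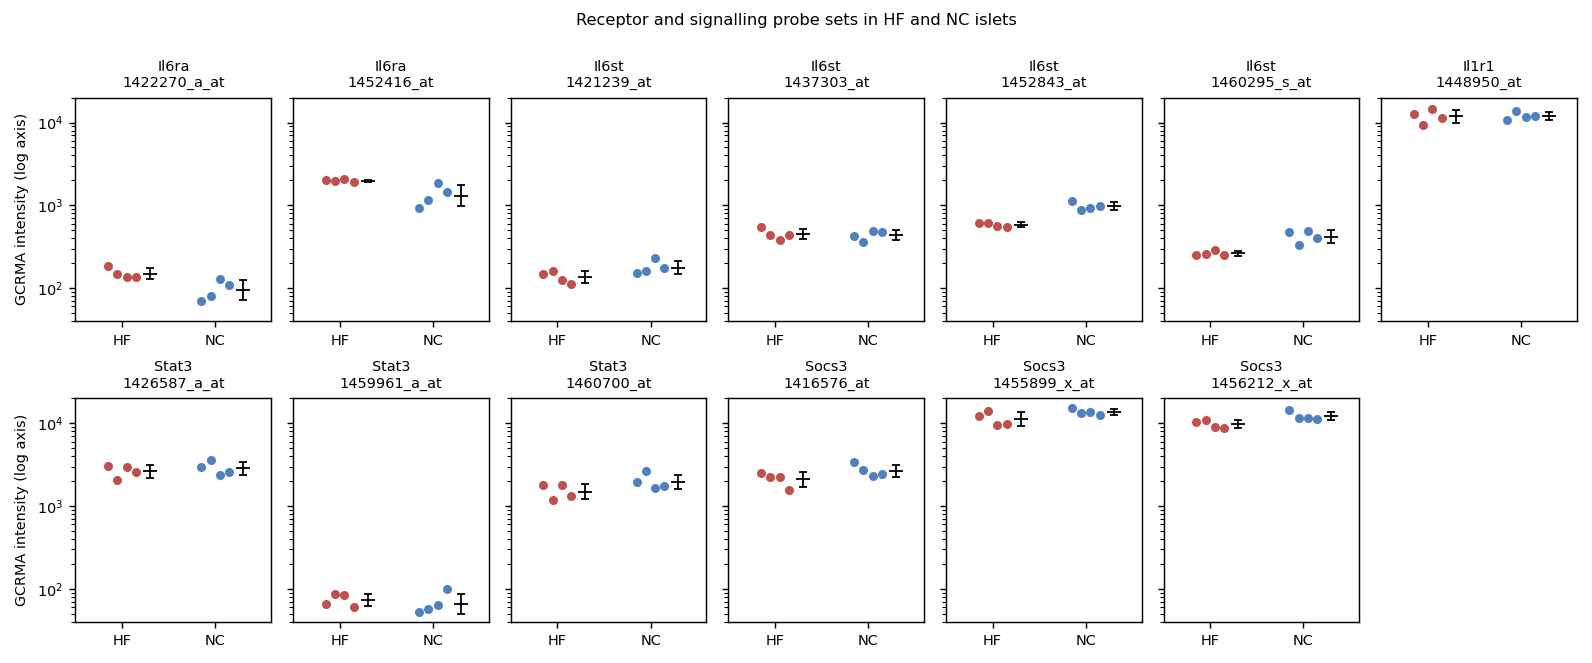
Linear GCRMA intensity, on a log axis, of the receptor, transducer and inhibitor probe sets that passed the filter, in the 4 HF samples (left) and the 4 NC samples (right), and beside each group a tick at its mean log2 value with a bar of 1 SD. Il6st separates the diets at 2 of 4 probe sets with HF lower, both Il6ra probe sets have HF above NC, and the Il1r1 and Stat3 values of the diets overlap.

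Stat3, the transcription factor that carries the interleukin 6 signal, had 3 probe sets over the filter and none was called. At 1426587_a_at it read 3042, 2049, 3010 and 2555 in HF and 3000, 3591, 2355 and 2600 in NC (log2 fold change -0.12, standard error 0.17). At 1460700_at it read 1801, 1181, 1788 and 1313 in HF and 1932, 2637, 1666 and 1730 in NC (log2 fold change -0.39, standard error 0.19). In both, HF 22 was the lowest HF sample and NC 2 the highest NC sample, the same samples that were the extremes of Il1r1. The dimmer 1459961_a_at read 66.0, 86.2, 84.4 and 61.0 in HF and 52.5, 57.1, 63.3 and 99.6 in NC (log2 fold change 0.16, standard error 0.21), and its highest sample was NC 5. A further Stat3 probe set, 1424272_at, stayed under the filter at 5.22 to 5.72 in HF and 5.53 to 5.65 in NC.

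Socs3, the inhibitor that STAT3 induces, also had 3 probe sets and no call. At 1456212_x_at its intensities were 10415, 10974, 8982 and 8761 in HF and 14436, 11599, 11628 and 11254 in NC, with a log2 fold change of -0.32 (standard error 0.11), and all HF values lay under all NC values. The other 2 overlapped between the diets. They read 2501, 2228, 2242 and 1569 in HF and 3374, 2729, 2305 and 2414 in NC at 1416576_at (log2 fold change -0.35, standard error 0.17). For 1455899_x_at the values were 12346, 14263, 9569 and 9805 in HF and 15541, 13266, 13736 and 12652 in NC (log2 fold change -0.28, standard error 0.14). The 3 fold changes were thus alike in sign and size, NC 1 was the highest of the 8 samples at all 3, and none reached the fold of 1.5. By their suffix, some probes of 1455899_x_at and 1456212_x_at can also bind other sequences.

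The other genes of the pathway were taken from 7 lists by role, with 1 probe set per gene, the brightest one kept. These lists hold 136 genes, of which 88 were measured. Of the 88, 15 were called lower in HF islets, none was called higher and 73 were not called, while over all 12299 genes measured 4.28% were called lower and 0.447% higher. At an unadjusted limma p under 0.05, 35 were lower and 4 higher, and the methods' t-test called 0 higher with or without adjustment. The median log2 fold change of the 88 was -0.15, against 0.00 over all genes measured. Since the lists were written with earlier results of these data known, nothing is read from these comparisons with all genes. Of the 15 calls, 8 held whichever sample was left out (Cd14, Serping1, Steap4, Osmr, Tnfaip3, Tgfbr2, Id3 and Lrp1).

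Among 34 further acute-phase proteins, 14 were measured, 4 were lower (Cd14, Serping1, Lbp and Steap4, the last named after its values were seen) and 10 were not called, with a list median of -0.27. Cd14, the lipopolysaccharide co-receptor of monocytes and macrophages, read 48.8, 31.0, 29.8 and 38.0 in HF and 158, 177, 124 and 149 in NC, with a log2 fold change of -2.06 (limma adjusted p = 0.00106). Serping1, the inhibitor of complement C1, averaged 913 ± 132 in HF and 1909 ± 175 in NC (SD, n = 4 each), with a log2 difference of -1.07 (limma adjusted p = 0.00256). Lbp, which hands lipopolysaccharide to CD14, read 8.74 to 9.64 in HF, around the filter level and with HF 23 under it, against 12.9 to 15.4 in NC, with a log2 fold change of -0.60 (limma adjusted p = 0.00384). The Lbp call was lost without HF 23, NC 2 or NC 5, since its fold then passed under the limit of 1.5. Steap4, a metalloreductase of the cell surface, had a log2 fold change of -0.97 (limma adjusted p = 0.00874). The classical liver products were mostly under the filter, with 16 listed genes below it, Crp, Fga, Fgb and Fgg among the 20 not measured.

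Of 15 cytokines and antagonists, mostly of the interleukin 6 and interleukin 1 families with Tnf, Il10 and Il22 added, 6 were measured and 1 was lower. That was Il6, at 11.8, 57.9, 11.8 and 15.1 in HF and 448, 111, 65.8 and 152 in NC, with a log2 fold change of -3.00 (standard error 0.69, limma adjusted p = 0.0439). The values spread widely on both diets and the HF 22 and NC 4 values were close, and the call was lost without any one of HF 21, HF 23, HF 24, NC 1, NC 2 and NC 5, with adjusted p then between 0.0807 and 0.120. Il1b, the main interleukin 1 of macrophages, read 290 to 477 in HF and 354 to 670 in NC, with a log2 fold change of -0.55 (limma adjusted p = 0.218). Il18, a related cytokine, had a log2 fold change of -0.39 (limma adjusted p = 0.00874), which passed the p limit and not the fold limit.

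Partner receptors numbered 15 with 9 measured and 2 lower. Osmr, the oncostatin M receptor that pairs with gp130, read 77.7, 121, 89.1 and 70.6 in HF and 181, 199, 188 and 193 in NC (log2 fold change -1.12, limma adjusted p = 0.00593). Tnfrsf1b, a receptor for tumour necrosis factor, read 10.03 to 11.6 in HF and 15.02 to 26.3 in NC (log2 fold change -0.92, limma adjusted p = 0.0163), and this call was lost without HF 24 (adjusted p = 0.0527). Lifr, the leukaemia inhibitory factor receptor and another partner of gp130, was not called at a log2 fold change of 0.17 (limma adjusted p = 0.276). Of 24 kinases, adaptors and transcription factors, 19 were measured and none was called. At an unadjusted limma p under 0.05 and with no fold limit, 3 were lower and 0 higher. Cebpb, a C/EBP factor of the acute-phase response that was named after its values were seen, passed the p limit and missed the fold limit, at 1576 to 2258 in HF and 2570 to 3131 in NC (log2 fold change -0.55, limma adjusted p = 0.0310). Cebpd, a related factor, missed the p limit, at 2341 to 4177 in HF and 4402 to 5385 in NC (log2 fold change -0.66, limma adjusted p = 0.0592). Irak1 and Ptpn11, an interleukin 1 receptor kinase and a phosphatase recruited by gp130, had log2 fold changes of 0.05 and 0.08.

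Feedback inhibitors other than Socs3 gave 3 lower genes among the 14 measured of 16. Tnfaip3, an ubiquitin-editing inhibitor of NF-kappaB, averaged 149 ± 17.0 in HF and 294 ± 33.0 in NC (SD, n = 4 each), with a log2 difference of -0.98 (limma adjusted p = 0.00285). Nfkbia, which holds NF-kappaB in the cytoplasm, read 14247 to 16694 in HF and 21803 to 24512 in NC (log2 fold change -0.59, limma adjusted p = 0.00446), close to the fold limit, and its call was lost without HF 22, HF 24, NC 2 or NC 5. Socs2, a suppressor of growth hormone and cytokine signals, had a log2 fold change of -0.89 (limma adjusted p = 0.0253), and its call was lost in 5 of 8 fits that left out 1 sample. Cish, another member of the Socs family that was named after its values were seen, spread from 162 to 1282 in HF and from 960 to 2055 in NC, a log2 fold change of -1.82 that was not called (limma adjusted p = 0.119).

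For LRG1's partners in TGF-beta signalling, all 12 listed genes were measured and 3 were lower, with a list median of -0.69. Tgfbr2, the type II receptor, read 304, 352, 331 and 240 in HF and 620, 536, 506 and 581 in NC (log2 fold change -0.88, limma adjusted p = 0.00664). Id3, a transcriptional target of the pathway, read 341 to 438 in HF and 624 to 818 in NC (log2 fold change -0.88, limma adjusted p = 0.00459). Smad7, an inhibitor induced by the pathway, had a log2 fold change of -0.71 (limma adjusted p = 0.0462), and its call was lost in 6 of 8 fits that left out 1 sample. Endoglin (Eng) and ALK1 (Acvrl1), the endothelial receptors through which LRG1 acts in mouse vessels and which were named for that role after their values were seen, had log2 fold changes of -0.52 and -0.97. Neither was called, Eng because its fold was under 1.5 (limma adjusted p = 0.0252) and Acvrl1 because its adjusted p was 0.0750.

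Iron and haem handling genes, the setting in which ceruloplasmin, haptoglobin and lipocalin 2 work, had 14 of 20 measured, with 2 lower and a list median of -0.01. Lrp1, a scavenger receptor that also takes up haem bound to haemopexin, averaged 107 ± 12.4 in HF and 214 ± 29.7 in NC (SD, n = 4 each), a log2 difference of -0.998 (limma adjusted p = 0.00372). Slc11a1, a metal transporter of macrophage phagosomes, had a log2 fold change of -0.68 (limma adjusted p = 0.0264), a call lost in 5 of 8 fits that left out 1 sample. Fth1, the ferritin heavy chain, was bright and not called, at 33625 to 36051 in HF and 36111 to 39364 in NC.

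**Figure D4:**
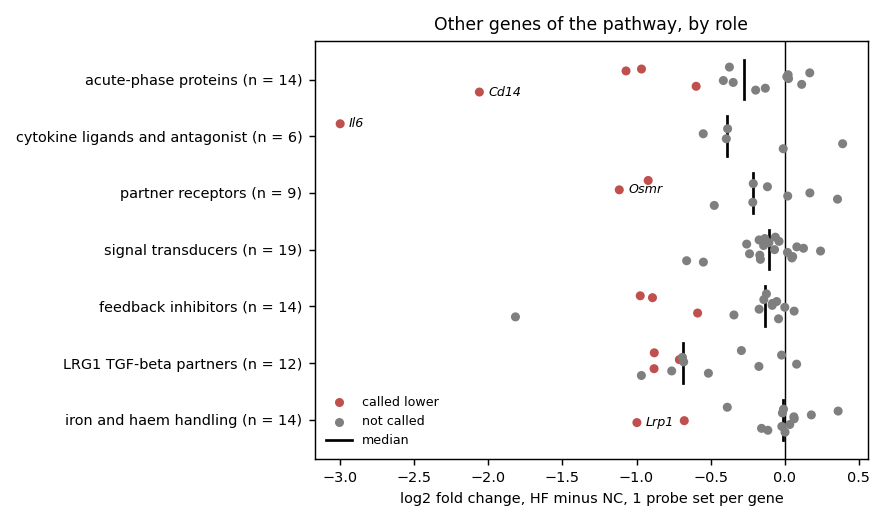
Log2 fold change, HF minus NC, of the 88 measured genes in the 7 pathway lists, 1 point per gene, with genes called lower in red, a bar at each list's median and a few called genes labelled. No gene was called higher, Il6 at -3.00 lies farthest from 0, and the uncalled feedback inhibitor at -1.82 is Cish.

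Markers of the other cell types that islet preparations hold were read beside these results. All 10 fibroblast markers were lower in HF islets, with a median log2 fold change of -2.43 and a summed intensity of 1587 to 3225 in HF and 9273 to 14274 in NC. Among B and plasma cell markers 4 of the 6 measured were lower (summed intensity 269 to 860 in HF and 1480 to 2680 in NC), and among macrophage markers 5 of 11 (2794 to 3563 in HF and 4478 to 5301 in NC). Endothelial markers were lower in 3 of 11 (13183 to 14785 in HF and 17326 to 20160 in NC), Vwf most of all with a log2 fold change of -3.12 (limma adjusted p = 0.00132). The brightest macrophage marker was C1qa (1278 to 1961 in HF) and the brightest endothelial marker Plvap (4445 to 5919 in HF), and neither was called. These lists moved in the same direction as Lrg1, Cp, the called Il6st probe sets, Cd14 and Il6, with no overlap of their sums between the diets, and their part in those results was not tested. The summed intensity of the 9 beta cell markers measured lay the other way, at 265569 to 278402 in HF and 250914 to 256584 in NC. The acinar, duct and mesothelial sums overlapped between the diets.

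Of 14 neutrophil markers, which mark a main source of LRG1 and lipocalin 2, only S100a8 and S100a9 were measured, while 9 were under the filter, the defining granule genes Mpo, Elane, Ngp and Camp among them, and 3 had no probe set of 1 gene. The sum of the 2 measured was 12.3 to 13.6 in HF and 15.2 to 94.7 in NC. All HF values of both, and those of NC 1, lay under the filter level, so both passed it through the other NC samples. Neither was called, with log2 fold changes of -2.03 for S100a8 (limma adjusted p = 0.0741) and -1.26 for S100a9 (limma adjusted p = 0.100). In NC 1, NC 2, NC 4 and NC 5, S100a8 read 8.07, 25.0, 64.4 and 36.9, and Lrg1 read 97.0, 126, 113 and 98.8. A relation between them was not tested. Adipocyte markers had 2 of 8 measured, with Fabp4 lower (log2 fold change -1.01, limma adjusted p = 0.00685) and Pparg not called, and Adipoq, Cidec, Lep and Retn were under the filter. Mesothelial markers had 2 of 8 measured and 0 called, with a median of -0.86 and a sum of 721 to 835 in HF and 660 to 867 in NC. That sum was nearly all Msln (log2 fold change 0.05), while Krt19, a keratin that duct cells share, read 5.15 to 8.53 in HF and 10.7 to 40.4 in NC (log2 fold change -1.77, limma adjusted p = 0.0534). The HF values of Krt19 all lay under the filter level. Neither the 11 acinar nor the 7 duct markers measured had a call, and their medians were both -0.03.

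The genes whose values over the 8 samples were most like those of Lrg1, by the root mean square difference of log2 values taken relative to each gene's NC mean, were Col1a1 (0.340), Cdh19 (0.543), Aqp1 (0.616), Scn7a (0.619) and Grp (0.654). Col1a1, the main chain of type I collagen, read 15.5, 56.8, 20.8 and 11.5 in HF and 260, 300, 234 and 412 in NC. As for Lrg1, HF 22 was the highest and HF 24 the lowest of its HF samples, which the choice by likeness favours. Aqp1 and Scn7a had the same extremes, while in Cdh19 and Grp HF 23 was the highest and HF 21 the lowest. Cdh19 is a cadherin of Schwann cell precursors, Scn7a an atypical sodium channel found in glia, Aqp1 a water channel and Grp a neuropeptide. The measure is a description over 8 samples that share the diet contrast, and in Cdh19 and Grp some HF values (2 and 4 of 4) were, as for Lrg1, under the filter level.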

How the data were processed

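Islet RNA of 4 HF and 4 NC samples was hybridised to Affymetrix MOE 430v2 arrays. The deposited intensity values had been made by the authors from the probe-level files with GCRMA in ArrayAssist Lite 3.4, on a linear scale, without replicates pooled. GCRMA quantile-normalises the arrays together and pulls dim probe sets towards a common low level, which can compress folds of dim genes. Present and absent flags were not used here.

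Values were log2 transformed and fitted on diet with limma 3.58.1 in R 4.3.3 (lmFit, eBayes). The study's methods used SAM, which was not run. Scripts were checked on simulated data. The members and lists were chosen with earlier results of these data known. Named beyond the members were up to 3 genes of each list, called ones first by p and then by mean intensity, and the 5 genes most like Lrg1. Steap4, Cish, Eng, Acvrl1 and Cebpb were added after their values were seen, and C1qa and Plvap as the brightest markers of their lists. Alternatives covered filter, scaling, variance prior, sample weights, the methods' t-test (stated for pairs of groups in general), fold limit, low values, probe set choice and samples left out. The labels do not say that samples are separate litters or cages, so p-values measure the spread between these samples, and no batch was labelled. The number of arrays limits the precision.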

Additional observations from a re-analysis of the deposited data

Results flagged for a closer look

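In 4 groups of 4 samples 1 sample lay far from the others by Dixon's ratio, the gap to the nearest sample over the range of the log2 values. Among the members this held in 2 of 54 groups and among the pathway genes named in 2 of 52, and chance alone flags about 1 in 20 groups. For Cp 1417497_at, which was under the filter, NC 5 read 12.9 against 7.67 to 7.87 in the other NC samples (ratio 0.951). For Socs3 1456212_x_at, NC 1 read 14436 against 11254 to 11628 (0.869). For Il6, HF 22 read 57.9 against 11.8 to 15.1 in the other HF samples (0.846). For Id3, NC 1 read 818 against 624 to 653 (0.8292).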

How the results depend on the processing

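No fold change of a kept member probe set with a call reversed under any alternative run. Lrg1 and the Cp calls held in every setting, apart from Cp 1417496_at with a fold limit of 2. Standing a gene by its most variable probe set moved no count by over 1.5 times. No paired analysis was possible because HF and NC samples share no replicate number in the labels. Scaling to the beta cell markers put the median log2 fold change of all kept probe sets at -0.09, against 0.02, and, since it moves every probe set alike, Lcn2 came to -0.24 and Saa3 to -0.09. With 1 sample left out, the uncalled Il1r1 (-0.11 to 0.10), Il6st 1437303_at (-0.04 to 0.13) and Stat3 1426587_a_at (-0.21 to 0.01) took either sign.

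Of all kept probe sets, 165 were higher in HF, against 85 with no filter, 95 with beta cell scaling, 332 by the methods' t-test, 59 by that test with Benjamini-Hochberg adjustment, 520 with no fold limit and 47 with a fold limit of 2. The 783 lower became 450 by the adjusted t-test and 432 with a fold limit of 2. The share of calls that were lower was 82.6%, and 92.2% with beta cell scaling. Leaving out 1 sample gave 93 to 158 higher and 543 to 759 lower. Of the member probe sets, 2 were higher (both Il6ra) by the unadjusted t-test, and leaving out 1 sample gave 0 to 2 higher and 8 to 9 lower.

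Lower acute-phase genes numbered 2 with a fold limit of 2, and 3 to 4 with 1 sample left out. Lower cytokine genes numbered 0 with no filter or the adjusted t-test, 2 with no fold limit, and 0 to 1 with 1 sample left out. Lower partner receptors numbered 1 by the adjusted t-test or a fold limit of 2, and 1 to 2 with 1 sample left out. Lower signal transducers numbered 1 with the stricter filter, the intensity trend, sample weights, the t-test or no fold limit, 2 with beta cell scaling, and 0 to 2 with 1 sample left out. Lower feedback inhibitors numbered 0 with a fold limit of 2, and 1 to 4 with 1 sample left out. Lower TGF-beta partners numbered 6 with beta cell scaling, 5 with sample weights, 7 by the t-test and 0 with a fold limit of 2, and 2 to 5 with 1 sample left out. Lower iron and haem genes numbered 1 with no filter or the adjusted t-test and 0 with a fold limit of 2, and 1 to 2 with 1 sample left out.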
